A study of Mus musculus with 8 samples.

Results

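A set of 9 genes of retinoid metabolism and signalling was followed through sorted mouse mammary epithelium: Aldh1a1, Aldh1a2, Aldh1a3, Rara, Rarb, Rarg, Crabp2, Dhrs3 and Stra6. They were chosen by gene name, and all 9 have a row among the 49671 genes of the deposited RNA-seq table. The table holds 8 libraries, 2 for each of 4 groups. CD1 luminal and CD1 basal cells came from the mammary glands of female CD1 mice, which carry no transgene named in the labels. DNp63 luminal and DNp63 basal cells came from female K8rtTA/TetOCre/Rosa26-DNp63-IRES-GFP mice, in which the keratin 8 promoter drives the doxycycline-responsive activator, Cre then opens the Rosa26 cassette, and the cells make the ΔNp63 form of the transcription factor p63 together with GFP. Luminal cells were sorted as CD24+ CD29low and basal cells as CD24+ CD29high, all after removal of CD45+, CD31+ and CD140a+ cells, with 40000 luminal or 5000 basal cells per library. The DNp63 cells were also gated on GFP, so they are the fraction that had switched the cassette on. For the age of the mice, the doxycycline schedule of this line and any pooling of animals, the sources used here give no information. Strain, doxycycline and the GFP gate go with the transgene in every comparison between mice, and their parts cannot be told apart.

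Retinoic acid is made from vitamin A inside the cell. Retinol is carried in the blood by a binding protein and can enter through the membrane transporter STRA6. Short-chain dehydrogenases convert retinol and retinal into one another, with DHRS3 working in the direction of retinol. The ALDH1A enzymes oxidise retinal irreversibly to retinoic acid. CRABP2 carries retinoic acid to the nucleus, where the receptors RARα, RARβ and RARγ bind DNA together with RXR and switch target genes. In mammary tissue the ALDH activity used to isolate progenitor cells comes from this enzyme family, and ALDH1A3 is known as an enzyme of luminal progenitors.

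RARB is the classical example of a receptor gene that is itself switched on by retinoic acid, through a direct repeat of a hexamer just upstream of its transcription start. That repeat is shown because Rarb is the member whose own regulation by the pathway is best known. It was read from the RefSeq promoter window of mouse Rarb (build GRCm38.p6, minus strand, chr14:16575507-16575535), with the hexamers in capitals.

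Rarb: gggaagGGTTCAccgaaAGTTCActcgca

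The repeat runs from base -53 to base -37 relative to the RefSeq start. In the GENCODE annotation the same bases lie in the 5′ UTR exon of 2 Rarb transcripts that start further upstream, Rarb-201 and Rarb-207. The search was for 2 hexamers in the same orientation, each being AGGTCA or AGTTCA or GGGTCA or GGTTCA, separated by 5 bases, on both strands of the RefSeq windows. Such a pair was found in 0.0974% of the 32851 promoter windows. Among the members, 7 are in the promoter table with 17 windows between them, and Rarb alone had a match. With a spacer of 1 base the pair was found in 0.222% of windows, and with 2 bases in 0.268%, with no member among them. The wider set of hexamers decides the Rarb match: with AGGTCA alone as the hexamer and a spacer of 5 bases, 0.00913% of windows and 0 members matched, and with spacers of 1 and 2 bases 0 members matched as well. Only matches to these letters were counted, and binding was not measured.

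All values below are reads per gene scaled to 20000000 per library, and the libraries held 4136998 to 7206729 reads before scaling, so 1 read is worth 2.78 to 4.83. Differences are on the log2(value + 8) scale from limma fitted to all 16900 genes that reached 40 in at least 2 libraries, with Benjamini-Hochberg adjusted p under 0.05 called. The scale understates the change of weakly expressed genes. Whether both libraries of a group stem from separate animals is not stated in the labels, so the p-values measure the spread between libraries, which may be technical. Aldh1a2 did not reach the filter and was not tested. Stra6 reached it only through the DNp63 basal libraries where it is high, so its calls there follow in part from how it entered the test and are given as descriptions, as are the counts of called members below. The luminal and basal labels matched their keratins: Krt8 was at 42397 to 45769 in luminal and 3688 to 8264 in basal libraries, and Krt14 at 230 to 435 against 30261 to 36528. RNA of the markers used for removal was still present. Pecam1, which encodes CD31, was at 331 to 571 in luminal and 4980 to 8163 in basal libraries. Pdgfra, for CD140a, was at 196 to 1049 and 344 to 2978, and Ptprc, for CD45, at 47 to 75 and 30 to 165. Trp63, which encodes p63, was at 61 and 45 in CD1 luminal and 1297 and 1460 in DNp63 luminal libraries, and 5457 and 7079 in CD1 basal against 8088 and 8306 in DNp63 basal libraries. The table does not separate transgene from endogenous Trp63 reads.

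Between CD1 basal and CD1 luminal cells, the retinoic acid enzymes differed in opposite directions: Aldh1a3 was 8.94-fold lower and Aldh1a1 4.45-fold higher in basal cells, Crabp2 was 3.83-fold lower and Rarb 2.18-fold higher. Of the 8 members tested, 2 were called higher and 2 lower, against 24.5% of all genes called higher and 19.8% called lower. Between DNp63 basal and DNp63 luminal cells 3 were called higher and 2 lower, against 26.0% and 22.2% of all genes. In the CD1 gate comparison the members' share therefore lay near that of the table as a whole. The 3 called higher in the DNp63 comparison include Stra6, which entered the test through the DNp63 basal libraries. DNp63 luminal cells differed from CD1 luminal cells in 1 called member, Aldh1a3, which was higher. The background there was 2.62% of genes higher and 1.75% lower. With limma, no member was called lower. At an unadjusted limma p under 0.05, 2 (Rara and Dhrs3) were lower and 2 (Aldh1a3 and Crabp2) higher. Voom on the recovered reads called 1 higher and 0 lower. DNp63 basal cells differed from CD1 basal cells in 1 called member, Stra6, which was higher, against 0.207% of genes higher and 0.432% lower. No member was called lower by limma or by voom, and voom called 0 higher. At an unadjusted limma p under 0.05, 1 (Dhrs3) was lower and 2 (Stra6 and Crabp2) were higher. DNp63 basal cells were also set against CD1 luminal cells, a comparison that differs in gate and mouse at once. There 3 members were higher and 4 lower, with 26.5% of all genes higher and 20.3% lower. These 5 comparisons share their libraries and are not independent of each other.

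**Figure D1:**
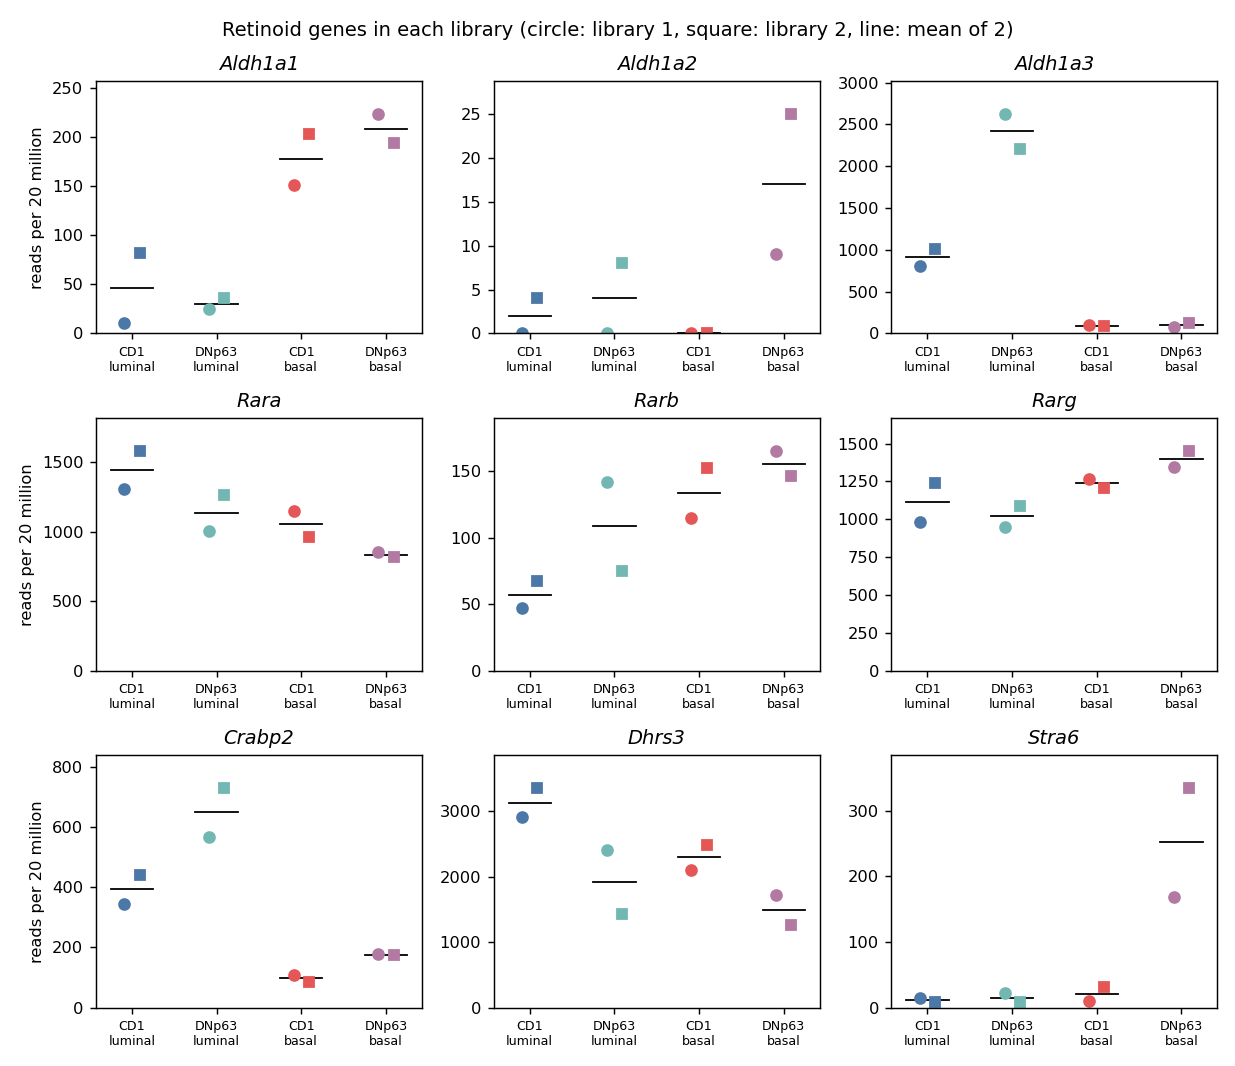
Values of the 9 genes in reads per 20000000 in each of the 8 libraries, 1 panel per gene with its own axis from 0, coloured by group. Aldh1a3 and Crabp2 stand highest in the DNp63 luminal libraries, Aldh1a1 in both basal groups, and Stra6 in the DNp63 basal libraries only.

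Aldh1a3, the retinal dehydrogenase of luminal cells, lies on chromosome 7, 66390890 to 66427517, minus strand (GRCm38, as are all positions here; ENSMUSG00000015134). Its values were 805 and 1016 in CD1 luminal and 2626 and 2211 in DNp63 luminal libraries, and 106 and 84 in CD1 basal against 81 and 131 in DNp63 basal libraries. The DNp63 luminal libraries were highest, the CD1 luminal libraries next, and all 4 basal libraries lay below every luminal one, while the basal groups overlapped each other. The basal minus luminal difference was -3.16 ± 0.26 (SE; limma adjusted p = 3.47e-05) in CD1 mice and -4.36 ± 0.26 (adjusted p = 4.89e-06) in DNp63 mice, which is 20.6-fold. Between DNp63 basal and CD1 luminal cells the difference was -3.01 ± 0.26 (adjusted p = 3.46e-05). Within the luminal gate, DNp63 cells stood 1.35 ± 0.26 above CD1 cells (2.54-fold, adjusted p = 0.0251). Within the basal gate the difference was 0.15 (95% interval -0.45 to 0.74, adjusted p = 0.906). The interaction term, the basal gap in DNp63 mice minus that in CD1 mice, was -1.20 with an unadjusted p of 0.0105 and an adjusted p of 0.248, so a difference between the gaps was not called.

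The rise of Aldh1a3 in DNp63 luminal cells rests on 4 libraries and is close to the threshold. It was 1.13 (adjusted p = 0.0765) without CD1 luminal library 1, 1.22 (0.163) without DNp63 luminal library 1 and 1.48 (0.123) without DNp63 luminal library 2. With no filter on low values its adjusted p was 0.0541. The sum of the luminal progenitor markers moved the other way between the same libraries. Over 9 genes, Aldh1a3 not among them, it was 171345 and 165577 in CD1 luminal and 71982 and 83984 in DNp63 luminal libraries. Not every gene of the list fell: Wfdc18 was at 6791 and 1760 against 7682 and 8882. Elf5 and Kit were not called (limma adjusted p = 0.577 and 0.453). Of the 9 genes, 4 were called lower and 0 higher. At an unadjusted p under 0.05, 6 were lower and 0 higher, and voom called 5 lower and 0 higher. Over all genes limma called 1.75% lower and 2.62% higher between these groups. The hormone-sensing marker list stayed at 127324 and 142766 against 132720 and 143139. The part of such shifts in the Aldh1a3 result was not tested. In bulk libraries, fewer cells of a type and less RNA per cell cannot be told apart.

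Aldh1a1, the other main retinal dehydrogenase, lies on chromosome 19, 20492715 to 20643465, plus strand (ENSMUSG00000053279). It was at 11 and 82 in CD1 luminal and 25 and 36 in DNp63 luminal libraries, and 152 and 204 in CD1 basal against 224 and 194 in DNp63 basal libraries. All basal libraries lay above all luminal ones, and mice of the different strains overlapped within each gate. The basal minus luminal difference was 2.15 ± 0.62 (adjusted p = 0.0217) in CD1 mice and 2.58 ± 0.62 (5.97-fold, adjusted p = 0.00897) in DNp63 mice. Between mice, the difference was -0.16 (95% interval -1.59 to 1.26) in luminal and 0.26 (-1.16 to 1.68) in basal cells, intervals too wide to exclude a change of over 2-fold.

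The low value of Aldh1a1 in CD1 luminal library 1 was 3 reads, against 22 reads in library 2, and it sets the size of the CD1 difference. Without that library the difference fell to 0.97 (adjusted p = 0.0715), and without CD1 luminal library 2 it was 3.26. It was 2.37 (0.0598) without CD1 basal library 1 and 1.94 (0.113) without CD1 basal library 2. The DNp63 difference was 2.38 (0.0524) without DNp63 luminal library 1 and 2.49 (0.0541) without DNp63 basal library 1. DNp63 basal cells stood 2.41 ± 0.62 above CD1 luminal cells (adjusted p = 0.0126). That value was 1.22 (0.0306) without CD1 luminal library 1, and its call was lost without DNp63 basal library 1 (2.33, 0.0674) or library 2 (2.5, 0.0541). Aldh1a7, a near copy of Aldh1a1 in the mouse genome, was at 64, 56, 73 and 20 in the luminal and 14, 24, 26 and 15 in the basal libraries. How reads common to both genes were counted is not stated.

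Aldh1a2, the retinal dehydrogenase best known from the embryo, lies on chromosome 9, 71215789 to 71296243, plus strand (ENSMUSG00000013584). It was at 0 and 4 in CD1 luminal and 0 and 8 in DNp63 luminal libraries, and 0 and 0 in CD1 basal against 9 and 25 in DNp63 basal libraries. These are 0 to 5 reads per library. A library with 0 reads allows up to 3 reads, between 8.32 and 14.5 on this scale, from counting error alone. The gene was near or below the detection limit in 7 libraries, and 25 in DNp63 basal library 2 was the highest value.

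Per kilobase of exon, so that the enzymes can be set beside each other, Aldh1a3 made up 95.5% ± 4.56 (SD, n = 2) of the Aldh1a sum in CD1 luminal cells and 98.5% ± 0.939 in DNp63 luminal cells. Its share was 36.6% ± 8.59 in CD1 basal and 31.1% ± 6.94 in DNp63 basal cells. Luminal markers were present in the basal gate too. Their sum over 13 genes was 264882 to 300155 in luminal libraries, 46216 and 41797 in CD1 basal ones and 18778 and 20891 in DNp63 basal ones, with 8 of 13 called lower in DNp63 than CD1 basal cells, 12 at an unadjusted p under 0.05 and 6 by voom. Over all genes limma called 0.432% lower between the basal groups. The part of luminal RNA in the basal values of Aldh1a3 and Crabp2, and in their comparison between mice, was not tested. Aldh1a1 supplied 63.4% ± 8.59 and 58.9% ± 12.7 of the basal sums. The luminal pool of Aldh1a transcripts was thus nearly all Aldh1a3, and the basal pool was mixed with Aldh1a1 ahead. The summed level per kilobase was 208 ± 43.7 in CD1 luminal, 532 ± 59.5 in DNp63 luminal, 56.6 ± 4.08 in CD1 basal and 72.8 ± 8.36 in DNp63 basal cells.

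**Figure D2:**
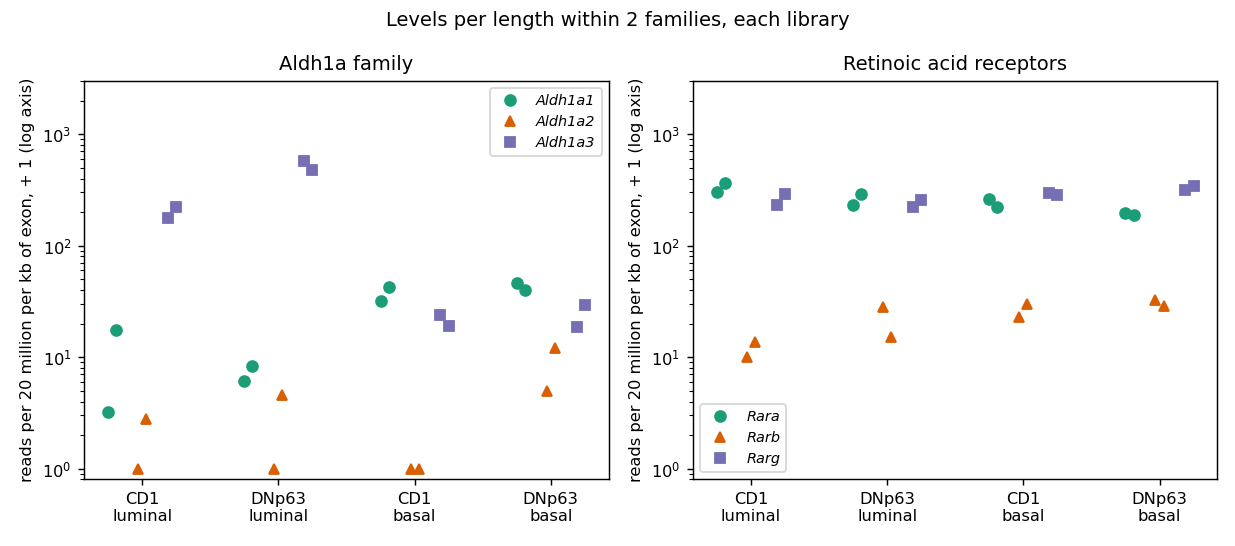
Levels per kilobase of exon of the Aldh1a enzymes and of the retinoic acid receptors in each of the 8 libraries. Each gene has its own points, in reads per 20000000 per kilobase with a small constant added, on a log axis. Aldh1a3 stands highest of the enzymes in the luminal libraries and Aldh1a1 in the basal ones. Rara and Rarg stand well above Rarb in all groups.

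Crabp2, the carrier that delivers retinoic acid to its receptors, lies on chromosome 3, 87948666 to 87953376, plus strand (ENSMUSG00000004885). It was at 344 and 441 in CD1 luminal and 567 and 728 in DNp63 luminal libraries, and 110 and 84 in CD1 basal against 178 and 175 in DNp63 basal libraries. No groups overlapped, and the order was DNp63 luminal, CD1 luminal, DNp63 basal, CD1 basal. Crabp2 fell from luminal to basal cells by 1.94 ± 0.24 in CD1 mice (adjusted p = 0.000282) and by 1.74 ± 0.24 in DNp63 mice (adjusted p = 0.000445). DNp63 cells were above CD1 cells by 0.65 (95% interval 0.11 to 1.19, adjusted p = 0.196) in the luminal gate and by 0.85 (0.31 to 1.39, adjusted p = 0.203) in the basal gate, and neither difference was called. Between DNp63 basal and CD1 luminal cells Crabp2 differed by -1.08 ± 0.24 (adjusted p = 0.0056). The basal minus luminal calls for Crabp2 and Aldh1a3 held under all 18 alternatives.

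Stra6, the retinol transporter, lies on chromosome 9, 58063788 to 58153996, plus strand (ENSMUSG00000032327). It was at 15 and 8 in CD1 luminal and 23 and 8 in DNp63 luminal libraries, and 10 and 32 in CD1 basal against 169 and 334 in DNp63 basal libraries. The first 6 libraries held 2 to 8 Stra6 reads each, and the DNp63 basal libraries held 40 and 69. Only the DNp63 basal libraries stood clear, and the other groups overlapped. The fitted difference of DNp63 basal cells was 3.53 ± 0.56 from DNp63 luminal, 3.71 ± 0.56 from CD1 luminal and 3.22 ± 0.56 from CD1 basal cells, or 11.5-fold, 13.1-fold and 9.35-fold. Since all other libraries lay below the filter of 40, Stra6 was tested only because of these high values, and its p-values support no statement here.

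The Stra6 call against CD1 basal cells, described above among the counts, had an adjusted p of 0.0493 and was lost in 8 of the 15 alternatives that could be fitted. The difference was 2.64 (adjusted p = 0.281) without CD1 basal library 1 and 3.81 (0.0897) without CD1 basal library 2, and the adjusted p was 0.0724 and 0.07 without DNp63 luminal libraries 1 and 2. Without either DNp63 basal library Stra6 no longer reached the filter and was not tested. The interaction was 3.04 ± 0.79 with an adjusted p of 0.174. For 2 members, Stra6 and Aldh1a3, the interaction had an unadjusted p under 0.05, and 0 members were called by limma or by voom. Over all genes 0.0828% were called with a positive and 0.225% with a negative interaction.

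Fibroblast markers moved with the same libraries. The sum over 9 fibroblast genes was 9166 and 44449 in CD1 luminal and 17237 and 9942 in DNp63 luminal libraries, and 16444 and 46125 in CD1 basal against 68926 and 91128 in DNp63 basal libraries, with no gene of the list at 0. It was highest where Stra6 was highest. CD1 luminal library 2, with 22 reads of Aldh1a1 against 3 in its partner, also had the higher fibroblast sum of the pair. The CD1 basal pair had the same order (Aldh1a1 at 152 and 204). The DNp63 luminal pair (25 and 36) and the DNp63 basal pair (224 and 194) had the opposite order. For Stra6 the CD1 luminal pair (15 and 8) ran against the fibroblast sum, and the other pairs ran with it. Of the fibroblast genes, 0 were called between DNp63 basal and CD1 basal cells by limma or by voom, and 4 were higher at an unadjusted p under 0.05. Between CD1 basal and CD1 luminal cells 0 were called by either and 0 passed unadjusted. Between DNp63 basal and DNp63 luminal cells 3 of 9 were called higher by limma and 7 by voom, with a list median of 2.60. Between DNp63 basal and CD1 luminal cells 5 of 9 were called higher by limma and 6 by voom, with a list median of 2.46. Over all genes limma called 0.207% higher between the basal groups and 24.5% between the CD1 gates. The shares were 26.0% between the DNp63 gates and 26.5% between DNp63 basal and CD1 luminal cells. Stra6 and Aldh1a1 were higher in DNp63 basal cells than in either luminal group. The fibroblast list median was 1.62 between the basal groups and 0.37 between the CD1 gates, against 0.01 and 0 over all genes. The part of fibroblast RNA in the Stra6 and Aldh1a1 results was not tested.

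**Figure D3:**
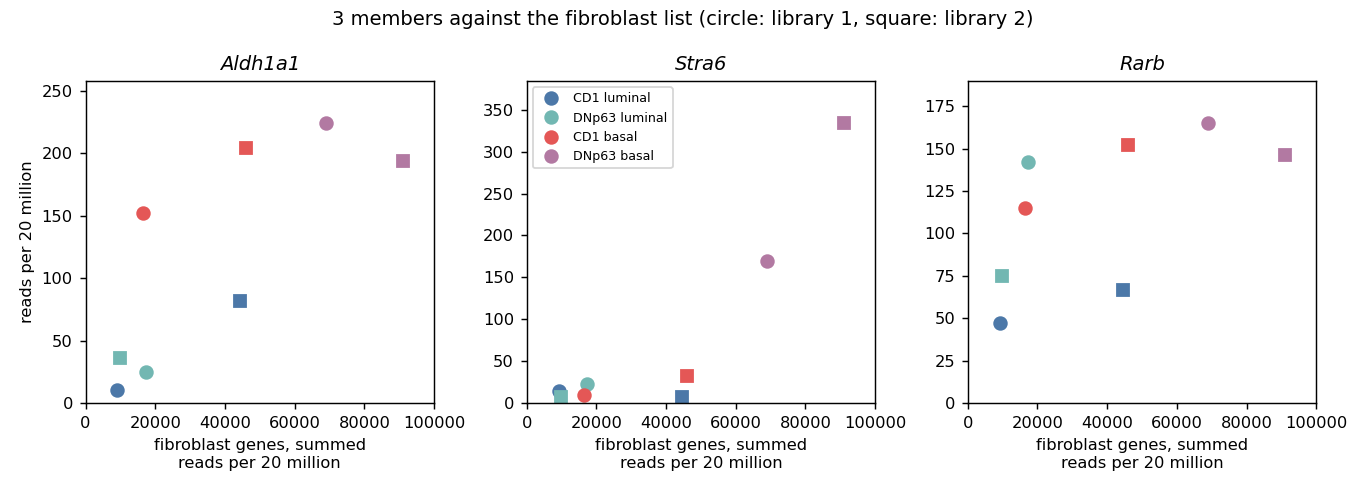
Aldh1a1, Stra6 and Rarb in each library (vertical axes, reads per 20000000) against the summed value of 9 fibroblast genes (horizontal axis, same unit), coloured by group. The DNp63 basal libraries lie farthest right and hold the highest Stra6 values, 169 and 334.

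Endothelial, adipocyte and pericyte markers were also higher in the basal than in the luminal libraries. The sum over 10 endothelial genes ran from 2462 to 4313 in luminal and from 41836 to 60177 in basal libraries, with 9 of 10 called higher in basal cells of each mouse line. That over 8 adipocyte genes ran from 530 to 758 and from 15096 to 27105, and that over 8 pericyte genes from 4228 to 5882 and from 17670 to 24119. Of the adipocyte genes 8 of 8 were called higher in basal cells of CD1 and 6 of DNp63 mice, and of the pericyte genes 7 of 8 in each, with 1 lower in DNp63 mice. Among the adipocyte genes, 3 would not have reached the filter without 1 of the basal groups. Any call of these 3 follows in part from how they entered the test. The immune sums overlapped between gates, at 1208 to 2069 in luminal and 1824 to 4196 in basal libraries, with 2 of 7 tested genes called higher in CD1 and 3 of 7 in DNp63 mice. Of these 7, 1 would not have reached the filter without the DNp63 basal libraries. Over all genes 24.5% were called higher in basal cells of CD1 and 26.0% in those of DNp63 mice, with 22.2% lower in the latter. None of the endothelial or pericyte genes was at 0 in any library, and up to 3 adipocyte genes were at 0 in a luminal library. Their part in the higher basal values of Aldh1a1, Rarb and the pathway genes below was not tested.

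Dhrs3, which reduces retinal back to retinol and so opposes the ALDH1A enzymes, lies on chromosome 4, 144892827 to 144928209, plus strand (ENSMUSG00000066026). It was at 2908 and 3353 in CD1 luminal and 2415 and 1433 in DNp63 luminal libraries, and 2111 and 2484 in CD1 basal against 1716 and 1267 in DNp63 basal libraries. The CD1 luminal libraries were highest, and the other 3 groups overlapped in part. The gate difference was -0.45 (95% interval -1.01 to 0.11) in CD1 and -0.25 (-0.81 to 0.31) in DNp63 mice. The mouse difference was -0.80 (-1.36 to -0.24, adjusted p = 0.127) in luminal and -0.60 (-1.17 to -0.04, adjusted p = 0.407) in basal cells, and none of these 4 was called. With the replicate number as a block within each mouse line the CD1 gate difference had an adjusted p of 0.0129. DNp63 luminal libraries 1 and 2 differed most here. Without library 1 the luminal difference was -1.19 (adjusted p = 0.0487), and without library 2 the DNp63 gate difference was -0.69 (adjusted p = 0.0472). DNp63 basal cells were below CD1 luminal cells by a called -1.05 ± 0.25 (adjusted p = 0.00789), which was -0.85 (0.0652) without DNp63 basal library 2. Per kilobase Dhrs3 had the highest mean of the members in every group, from 1070 ± 108 in CD1 luminal to 510 ± 108 in DNp63 basal cells.

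Rara encodes the broadly expressed receptor RARα and lies on chromosome 11, 98927818 to 98974942, plus strand (ENSMUSG00000037992). It was at 1309 and 1579 in CD1 luminal and 1002 and 1260 in DNp63 luminal libraries, and 1150 and 959 in CD1 basal against 852 and 818 in DNp63 basal libraries. CD1 luminal cells were highest and DNp63 basal cells lowest, each clear of the others, with overlap between the middle groups. The gate difference was -0.45 (95% interval -0.83 to -0.08, adjusted p = 0.052) in CD1 and -0.34 (-0.72 to 0.03, adjusted p = 0.117) in DNp63 mice. In CD1 mice it was -0.65 (adjusted p = 0.021) without CD1 luminal library 1 and -0.50 (0.0438) without DNp63 luminal library 2. With the replicate number as a block within each mouse line its adjusted p was 0.0362. Across gate and mouse together, from CD1 luminal to DNp63 basal cells, Rara fell by 0.75 ± 0.17 (1.69-fold, adjusted p = 0.00564).

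Rarg encodes RARγ, the main receptor of stratified epithelia, and lies on chromosome 15, 102234938 to 102257517, minus strand (ENSMUSG00000001288). It was at 983 and 1241 in CD1 luminal and 952 and 1088 in DNp63 luminal libraries, and 1269 and 1210 in CD1 basal against 1345 and 1451 in DNp63 basal libraries. The DNp63 basal libraries were above all others, and CD1 luminal libraries overlapped both DNp63 luminal and CD1 basal ones. The DNp63 gate difference was called at 0.54 ± 0.15 (1.45-fold, adjusted p = 0.0185), and that in CD1 mice was 0.16 (95% interval -0.19 to 0.51, adjusted p = 0.426). The difference between them, 0.38, had an adjusted p of 0.637. The DNp63 value was 0.45 (adjusted p = 0.116) without DNp63 luminal library 1, 0.56 (0.0648) without DNp63 luminal library 2 and 0.46 (0.103) without DNp63 basal library 2. DNp63 basal cells were above CD1 luminal cells by 0.36 (adjusted p = 0.0825), or 0.49 (0.0331) without CD1 luminal library 2.

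Rarb encodes RARβ, the receptor gene with the repeat printed above, and lies on chromosome 14, 16430839 to 16819156, minus strand (ENSMUSG00000017491). It was at 47 and 67 in CD1 luminal and 142 and 75 in DNp63 luminal libraries, and 115 and 152 in CD1 basal against 165 and 146 in DNp63 basal libraries. CD1 luminal libraries were lowest and did not overlap with any group, while the other 3 groups overlapped. The CD1 gate difference was 1.12 ± 0.36 (adjusted p = 0.0329), and that in DNp63 mice was 0.63 (95% interval -0.20 to 1.45, adjusted p = 0.185). DNp63 basal cells were above CD1 luminal cells by 1.37 ± 0.36 (2.58-fold, adjusted p = 0.0138).

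The Rarb calls are weakly held. In CD1 mice the adjusted p was 0.165 (difference 0.85) without CD1 luminal library 1, 0.0603 (1.33) without CD1 basal library 1, 0.17 (0.92) without CD1 basal library 2, and 0.0525 and 0.0518 without DNp63 basal libraries 1 and 2. The call against CD1 luminal cells was lost without CD1 luminal library 1 (1.08, 0.0821), DNp63 basal library 1 (1.30, 0.0708) or DNp63 basal library 2 (1.44, 0.0521). Rarb also shares 1793 exon bases, 34.1% of its exon length, with Top2b on the opposite strand. Top2b, a topoisomerase gene, was at 5050 to 6783, and without a stated strand setting its reads and those of Rarb cannot be told apart over the shared bases.

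Per kilobase of exon, the sum of the 3 receptors was 603 ± 89.2 in CD1 luminal, 519 ± 55.4 in DNp63 luminal, 558 ± 35.8 in CD1 basal and 549 ± 9.53 in DNp63 basal cells. The CD1 luminal libraries were at 540 and 666. Both basal means lay between these values, and the DNp63 luminal mean lay below them. The make-up of the sum differed. Rara supplied 55.0% ± 0.881 (SD, n = 2) in CD1 luminal, 49.8% ± 2.74 in DNp63 luminal, 43.2% ± 2.78 in CD1 basal and 34.9% ± 1.61 in DNp63 basal cells. Rarg supplied 43.3%, 46.1%, 52.2% and 59.8% in the same order, and Rarb 1.78% to 5.39%. Rara led in CD1 luminal cells and Rarg in basal cells of either mouse. In DNp63 luminal cells the 2 were close, Rara at 47.8% and 51.7% and Rarg at 46.6% and 45.7% in libraries 1 and 2. The shares were not tested.

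**Figure D4:**
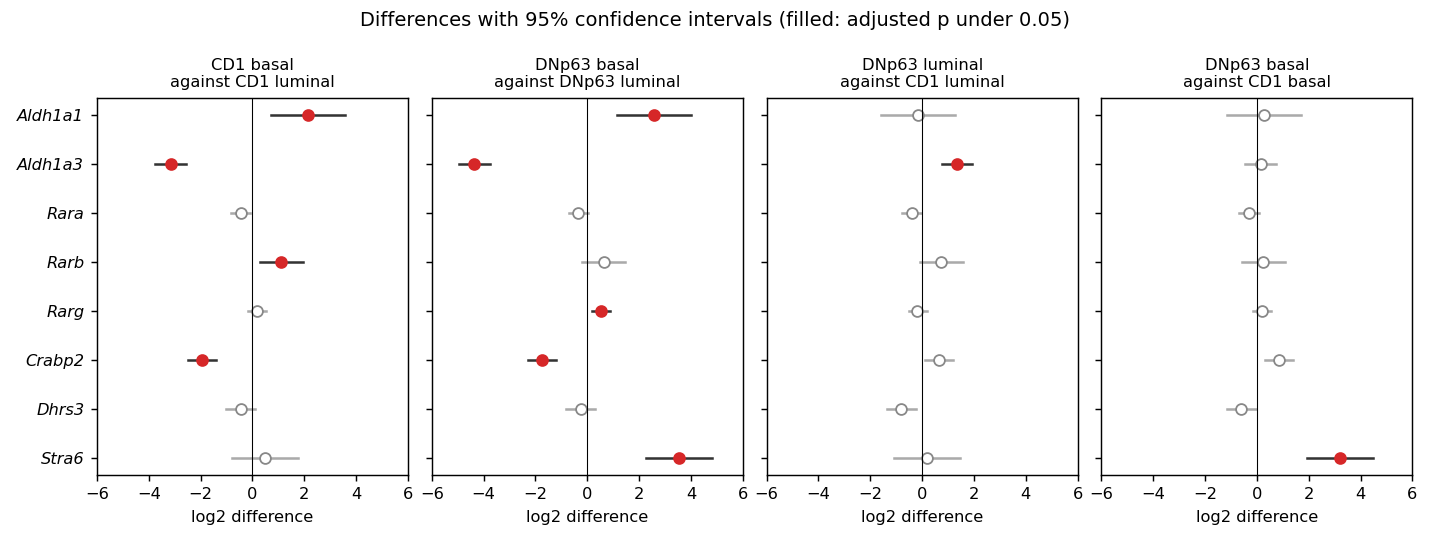
Log2 differences of the 8 tested genes in 4 comparisons, with 95% confidence intervals from limma (filled points: adjusted p under 0.05). Aldh1a3 and Crabp2 lie left of 0 in both gate comparisons and Aldh1a1 lies right, while between mice Aldh1a3 is called in luminal and Stra6 in basal cells.

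Genes were also ranked by how closely their log2 values followed each member over the 8 libraries, among 12349 genes with a mean of at least 100. The values share the same libraries and the same 4 groups, and r is given as a description. Gm22270 followed Aldh1a3 with a Pearson r of 0.997. Aldh1a1 was closest to Adam23 (0.991) and Loxl2 (0.99), and Crabp2 to Blzf1 (0.992) and C130089K02Rik (0.988). Stra6 was closest to N4bp2 (0.977) and 1600014C10Rik (0.976), the latter at 139 to 239 in 6 libraries and 2019 and 3008 in DNp63 basal cells. The receptors' closest genes were Gm38057 (0.988) and Cyld (0.969) for Rara, Gfra3 and Cfl2 (0.966 each) for Rarb, and Dnajc18 (0.97) and Nav2 (0.963) for Rarg. For Dhrs3 they were Kdm5c (0.957) and Ndnl2 (0.955).

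The rest of the pathway was taken as lists, chosen with earlier results of these data known, beginning with uptake and carriers. The counts below stand against a table in which 24.5% of all tested genes were higher and 19.8% lower in CD1 basal than CD1 luminal cells, and 26.0% and 22.2% in the same comparison of DNp63 mice. No list was tested against these shares. Some lists hold 1 tested gene that would not have reached the filter without 1 of the groups. Any call of such a gene follows in part from how it entered the test. Of 8 uptake and carrier genes 5 were tested, and in CD1 mice 3 were higher and 1 lower in basal cells. Rbp7, a cellular retinol-binding protein, was at 25, 38, 23 and 47 in the luminal and 660, 1498, 367 and 141 in the basal libraries, all basal ones above all luminal ones, with a difference of 4.68 ± 0.54 in CD1 mice. Fabp5, which can carry retinoic acid to another receptor class, gave 2.70 ± 0.42. Stra6l, a relative of Stra6 that takes up retinol, went the other way: it was at 277, 93, 203 and 329 in the luminal and 28, 4, 0 and 30 in the basal libraries, with a CD1 difference of -3.04 ± 0.83 (adjusted p = 0.0169). Stra6 and Stra6l were thus high in different groups. In DNp63 mice 4 of the 5, Crabp1 among them, were higher and 1 lower in basal cells. Crabp1, the sister carrier of Crabp2, passed the filter through DNp63 basal cells, where it was at 173 and 556 against 10 and 20 in CD1 basal cells. That difference of 3.86 ± 0.70 had an adjusted p of 0.056 and was not called.

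Of 6 genes for storing and releasing retinyl esters, all tested, 4 were higher and 1 lower in CD1 basal cells, and 3 were higher and 1 lower in DNp63 basal cells, each against the luminal cells of the same mice. Lrat, which esterifies retinol, was at 8, 12, 9 and 0 in the luminal and 156, 116, 43 and 88 in the basal libraries, a CD1 difference of 2.99 ± 0.49 (adjusted p = 0.00142). Lpl, a lipase that adipocytes also make, gave 3.38 ± 0.84. Of 17 genes that interconvert retinol and retinal, 12 were tested, and in CD1 mice 2 were higher and 1 lower in basal cells, in DNp63 mice 4 and 1. Rdh10, the main enzyme that makes retinal from retinol, was at 405, 523, 445 and 415 in the luminal and 1113, 1106, 1160 and 1117 in the basal libraries. The groups of the gates were far apart with little spread, and the CD1 difference was 1.25 ± 0.16 (2.38-fold, adjusted p = 0.000385). Dhrs4 was lower by -1.23 ± 0.23 in CD1 basal cells.

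Of 4 carotenoid genes 3 were in the table and 2 tested. Bco2, a carotene-cleaving enzyme, was at 242, 197, 59 and 126 in the luminal and 51, 8, 5 and 10 in the basal libraries, a CD1 difference of -2.89 ± 0.61 (adjusted p = 0.00502). Scarb1, a lipoprotein receptor that takes up carotenoids, was higher in CD1 basal cells by 1.95 ± 0.15. Of 11 other aldehyde dehydrogenases 9 were tested. In CD1 mice 2 were higher and 2 lower in basal cells, and in DNp63 mice 2 and 3. Among them Aldh1l2 gave 1.94 ± 0.34 and Aldh3b2 -1.82 ± 0.62 in CD1 mice. Of 4 genes for breaking down retinoic acid 2 were tested, and both were higher in CD1 basal cells, against 1 in DNp63 mice. Cyp26b1, the retinoic acid hydroxylase, was at 50, 26, 34 and 44 in the luminal and 257, 132, 245 and 378 in the basal libraries. Its gate difference was 2.11 ± 0.42 (adjusted p = 0.00379) in CD1 and 2.81 ± 0.42 (adjusted p = 0.000747) in DNp63 mice. Cyp26a1 was at 0 to 15 and was not tested.

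Of 12 partner receptors and coregulators 11 were tested, and 4 were higher and 2 lower in basal cells of either mouse, shares near those of the table. Rxra, the main partner of the receptors, was at 1355 and 1760 in CD1 luminal and 1630 and 1812 in DNp63 luminal libraries, and 1598 and 2036 in CD1 basal against 1948 and 2379 in DNp63 basal libraries, with overlap between gates in CD1 mice and no call (gate differences 0.22, adjusted p = 0.376, in CD1 and 0.41, adjusted p = 0.104, in DNp63 mice). Nr2f2, an orphan receptor that binds similar repeats, was higher in CD1 basal cells by 2.34 ± 0.21. Nrip1, a corepressor, was lower by -0.88 ± 0.17. Of 18 genes known to respond to retinoic acid, 5 of which stand in the lists above too, 14 were tested. In CD1 mice 8 were higher and 4 lower in basal cells, and in DNp63 mice 10 and 4, beside the 24.5% and 19.8% of all genes in CD1 and the 26.0% and 22.2% in DNp63 mice. Of the 14, 1 reached the filter only through the DNp63 basal libraries. It is among the 10, and its call there follows in part from how it entered the test. The highest difference in CD1 mice was that of Cd38 (3.12 ± 0.28), an ectoenzyme induced by retinoic acid in myeloid cells. The lowest was that of Tgm1 (-1.48 ± 0.21), a transglutaminase of the keratinocyte envelope that retinoic acid represses. Nrip1, given above, is in this list too. Tgm2 was at 6592 and 4901 in CD1 luminal and 2720 and 2304 in CD1 basal libraries. Meis1 was at 1302 and 1401 against 623 and 695. The list's median difference was 1.44 in CD1 mice against 0 over all genes. The list mixes induced and repressed genes, so its counts and medians give no direction of response.

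Between DNp63 and CD1 luminal cells, where Aldh1a3 was higher, the list of genes known to respond to retinoic acid had 2 called members and both were lower. Bhlhe40, a circadian repressor, was at 11233 and 13118 in CD1 luminal and 6725 and 6292 in DNp63 luminal cells, a difference of -0.96 ± 0.13 (adjusted p = 0.00555). Meis1, a homeobox gene, was at 1302 and 1401 against 814 and 850, or -0.75 ± 0.17 (adjusted p = 0.0481, close to the threshold). For both genes the pairs of libraries did not overlap. No gene of that list was called higher by limma or by voom, and 1 was higher at an unadjusted p under 0.05. The list's median was -0.36 against 0.01 over all genes. The other 7 lists had 0 called genes by limma or voom in this comparison, with 0 to 1 higher and 0 to 2 lower per list at an unadjusted p under 0.05. Between DNp63 and CD1 basal cells 0 genes of the 8 lists were called by either, with 0 to 2 higher and 0 to 2 lower per list at an unadjusted p under 0.05.

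**Figure D5:**
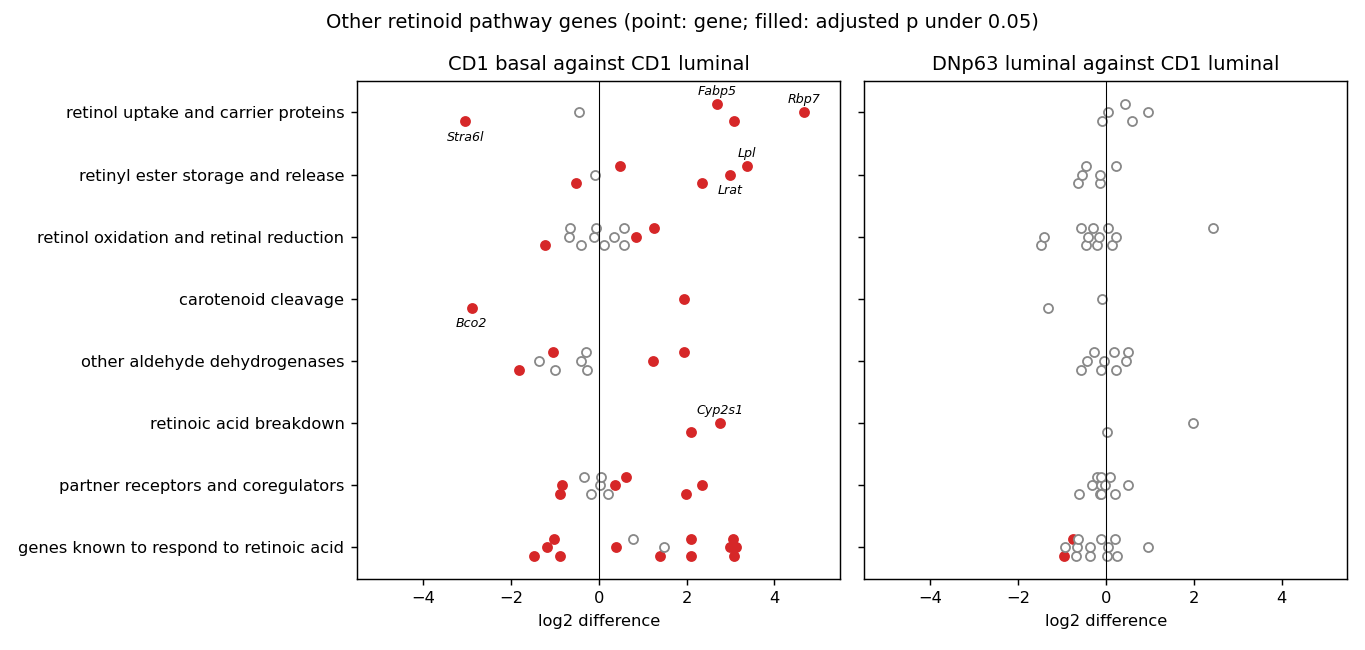
Log2 differences of the tested genes of the 8 retinoid pathway lists (rows), 1 point per gene, between CD1 basal and CD1 luminal cells and between DNp63 luminal and CD1 luminal cells (filled: limma adjusted p under 0.05). Called genes stand on both sides of 0 in the gate comparison, and the comparison between mice holds only the called Bhlhe40 and Meis1, both left of 0.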

How the data were processed

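RNA from sorted cells was sequenced after Ovation Solo library preparation, per the labels' protocols. The submitters' processing notes name STAR, HTSeq and the build GRCm38 (mm10). For versions, annotation and strandedness, the sources used here give no information. The deposited score values are read counts that the authors scaled to 20000000 per library and rounded up, per the labels and the values. They are not counts, so no count model was fitted to them. From them, values were scaled by trimmed means (30% of M and 5% of A values; factors 0.965 to 1.04), and log2(value + 8) was fitted with limma 3.58.1 (R 4.3.3) with a mean trend, 4 groups, 4 residual and 4.62 prior degrees of freedom. Genes needed 40 in at least 2 libraries. Whole reads were recovered by dividing by the value of 1 read, which gave whole numbers for 99.72% to 99.91% of values, against 20.68% to 36.03% by chance, and were tested with limma voom as an alternative. Over all genes voom called 58 between DNp63 and CD1 basal cells. The other alternatives were pseudocounts of 1 and 32, no filter or a filter at 100, other scalings, a replicate block over all groups or, added after the data were seen, within each mouse line, only the compared groups, and leaving out each library. Replicate libraries were not identical (chi-square per degree of freedom 6.34 to 16.5). Exon lengths and positions came from GENCODE M21, promoter sequence from RefSeq. Pathway genes were named as the highest and lowest called gene of each list per comparison. Fabp5, Crabp1, Lrat, Cyp26b1, Cyp26a1, Rxra and Meis1, and the marker and overlapping genes, were added for their known roles after values were seen. Some genes that these rules select are not reported here. The members and lists were chosen with earlier results of these data known.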

Additional observations from a re-analysis of the deposited data

How the results depend on the processing

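Stra6 is left out of the count of stable results, since it could not be tested without either DNp63 basal library. Of the other 15 called member results, 7 kept direction and call under every alternative run (Aldh1a3 and Crabp2 in both gate comparisons and between DNp63 basal and CD1 luminal cells, and Rara in the last), and 8 lost the call in at least 1. Of 30 not called, 5 were called in at least 1. No called result changed sign. Members called between the CD1 gates went from 4 to 2 with only the groups compared (2 to 5 leaving out a library). Between DNp63 and CD1 basal cells the 1 call became 0 with a pseudocount of 1, no filter, a filter at 100 or voom (0 to 1 leaving out a library). Between the luminal groups it became 0 with no filter (0 to 1). Leaving out a library gave 3 to 5 for the DNp63 gates and 3 to 8 for DNp63 basal against CD1 luminal cells. Over all genes, calls between the basal groups went from 108 (35 higher, 73 lower) to 71 with a pseudocount of 1, 55 with no filter and 58 by voom (39 higher, 19 lower), and 3 to 186 leaving out a library. Those between the luminal groups went from 739 to 464 with no filter and 314 with only those groups (141 to 972). Interaction calls went from 52 to 102 with a pseudocount of 32, 11 with no filter and 17 by voom (4 to 133). The cause was not tested. Leaving out a library leaves its group with 1, assumed to vary like the others.

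Replicate numbers are shared between groups. Differences between same-numbered libraries correlated at 0.341 between the gates of CD1 mice and at 0.266 between those of DNp63 mice, and at -0.0144 to 0.0411 between mouse lines. The labels do not say what a number marks, so no pairing is assumed. A fit with the number as a block over all groups called 185 genes between the basal groups and 118 interactions, and changed no member's call. A block within each mouse line, chosen after seeing the data and run for the gate comparisons and the interaction, called 492 interactions and 6 members instead of 4 between the CD1 gates, adding Rara and Dhrs3. Its other member calls were unchanged. Aldh1a2, at 0 to 5 reads per library, was too shallow to test, and Stra6 and Aldh1a1 fell to 2 and 3 reads.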
